A study of Homo sapiens with 16 samples.

Results

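The mitochondrial respiratory chain and ATP synthase are built from subunits of 2 genomes, and the genes described here are the nuclear-encoded ones. They were chosen by symbol alone, as the rows of the count table whose names follow the patterns for NDUFA, NDUFB, NDUFC, NDUFS and NDUFV, for SDHA to SDHD, for the UQCR subunits and CYC1, for 10 subunits of cytochrome c oxidase (complex IV) and for ATP5. This gave 100 rows, of which 20 were dropped because the symbol ends like that of a pseudogene. The remaining 80 rows, of 37864 in the table, carry 79 symbols, since NDUFA7 stands on 2 gene identifiers. The table uses older names for 19 of them, all ATP5 rows: ATP5A1 and ATP5B are now ATP5F1A and ATP5F1B, ATP5D is ATP5F1D, and ATP5G1, ATP5G2 and ATP5G3 are ATP5MC1, ATP5MC2 and ATP5MC3. Of the 80, 36 belong to complex I, 4 to complex II, 9 to complex III, 11 to complex IV (NDUFA4 is counted there) and 15 to ATP synthase. The other 5 match the naming pattern without being such subunits or duplicate a row, among them ATP5S (now DMAC2L) and ATP5SL (now DMAC2).

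RNA was sequenced from MDA-MB-231, a human triple-negative breast cancer line with mesenchymal features. Cells had received the solvent DMSO, afatinib (an irreversible blocker of EGFR family kinases), paclitaxel (a microtubule-stabilising taxane) or both drugs together, called the combination below. Each of these 4 groups has 4 libraries, and the design asks how each treatment differs from DMSO and the combination from each drug. Doses, exposure times and whether replicates were separate cultures are not given in the sources used here, so p-values measure the spread between these libraries, which may be technical.

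The chain passes electrons from NADH (through complex I) and from succinate (through complex II, also called succinate dehydrogenase) to ubiquinone, then through complex III, cytochrome c and complex IV to oxygen. Complexes I, III and IV pump protons across the inner membrane, and ATP synthase (complex V) lets them flow back through its ring of c subunits to drive ATP formation in its F1 head. Complex II is the only one of them with no mitochondrially encoded subunit, and it also carries out a step of the tricarboxylic acid cycle.

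Library totals ran from 28366004 to 48108577 counts (median 42725829). Levels below are CPM, counts scaled to a common library total, after TMM scaling, a correction for differences in library composition. A library is a sample of a fixed amount of RNA, so a lower share cannot be told apart from more RNA of other genes, and fewer cells of a kind cannot be told apart from less RNA per cell. The 6 fixed markers of the line (VIM, CD44, KRT8, KRT18, EGFR and CAV1) summed to 3320 to 5690 CPM in the 16 libraries. ESR1, PGR, CDH1 and ERBB2, listed beforehand as low in the line, summed to 56.9 to 108 CPM. Blood markers summed to at most 0.197 CPM, with each of the 4 in the table at 3 counts or fewer in each library, endothelial markers to 1.56 to 5.07 CPM and fibroblast markers to 12.3 to 27.5 CPM. Luminal breast markers summed to 14 to 20.6 CPM. The labelled RNA concentration was 345.6 to 1290.9 ng/µl for the 8 libraries numbered 1 or 2 and 118 to 330 ng/µl for those numbered 3 or 4. These 2 sets of libraries stand apart, and the set entered each fit as a term.

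Levels of different genes are compared per length. In DMSO, the level divided by the exon length in the table had a median of 56.7 CPM per kilobase for complex IV, 29.9 for complex II, 29.6 for complex III, 24.3 for ATP synthase and 11.4 for complex I. The highest single member was ATP5B, the catalytic beta subunit of the F1 head, at 346 CPM per kilobase, followed by COX8A at 224, COX6B1 at 135, NDUFS5 at 133, NDUFB7 at 121 and CYC1 at 117. Within a complex values spread widely, for example from 8.22 (SDHC) to 42 CPM per kilobase (SDHA) in complex II. The length used matters here: divided by the longest annotated transcript instead of all exon bases, SDHC reached 8.58 and SDHA 117 CPM per kilobase, and the median of all members rose from 24.5 to 38.6. The order of medians was then complex IV at 85.7, complex II at 58.8, ATP synthase at 48.6, complex III at 44.2 and complex I at 18.8.

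Of the 80 rows, 76 had enough counts to be tested, and NDUFA6, ATP5L2, ATP5J2LP and the second NDUFA7 row did not. Several low values belong to rows whose reads may be placed elsewhere. NDUFA6, an accessory subunit of complex I, had 3 counts over all 16 libraries together. NDUFV2, a core iron-sulphur subunit, had 9 to 42 counts per library while its pseudogene NDUFV2P1 had 76 to 219 and held 84.5% of their joint counts. Over 20% of the exon bases of 18 members overlap another annotated gene (for example 61.6% of ATP5I with MYL5 on the opposite strand and 49.1% of NDUFS7), and the strand setting of the counting is not given in the sources used here, so reads of these members may be divided or mixed with those of a neighbour. In 7 members the count stayed under 100 in each library.

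Drug treatment moved few of these genes. In the fit with the set as a term those that moved mostly fell, whereas with log2 RNA concentration as the term 14 were higher and 4 lower with paclitaxel and 18 higher and 7 lower in the combination, as described further on. Here a gene is called when its adjusted p, from the quasi-likelihood test of edgeR with Benjamini-Hochberg adjustment over 17991 genes, is under 0.05, and changes are log2 fold changes ± SE. With afatinib 1 member was higher and 4 were lower (6.58% of 76), where 19.1% of all genes tested were called, 9% as higher and 10.1% as lower. With paclitaxel 1 was higher and 8 lower (11.8%), against 20.5% of all genes, 8.65% higher and 11.9% lower. In the combination 2 were higher and 15 lower (22.4%), against 38% of all genes, 18.5% higher and 19.5% lower. The share of members called was thus below the background in each, and in the combination the share called lower, 15 of 76, was near the 19.5% of all genes. Among the 9718 genes whose average log2 CPM reached 3, 24.2%, 27.4% and 48.4% were called, with 1530, 1794 and 2665 genes lower. The 3 comparisons share the 4 DMSO libraries.

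The sizes were small as well. For afatinib, paclitaxel and the combination the median change of the tested members was −0.05, −0.02 and −0.05, and these medians turned to 0.05, 0.13 and 0.12 when log2 RNA concentration replaced the set in the fit, as described further on. Of the 76, 2, 5 and 5 moved by more than 1.25-fold with afatinib, paclitaxel and the combination. The approximate 95% interval (1.96 SE on each side) lay wholly within 1.25-fold of no change for 90.8%, 86.8% and 78.9% of members. The same was true of 73%, 69.5% and 54.6% of the 9718 genes whose average log2 CPM reached 3, a level that 71 members have. In all 51 members passed the test in none of the 5 treatment comparisons, including COX4I1 (a regulatory subunit of complex IV), COX5A, COX7C, NDUFV1 (the NADH-binding subunit of complex I), NDUFB8, NDUFA4 and ATP5A1 (the alpha subunit of the F1 head). COX4I1, for example, changed by −0.05 ± 0.05, −0.03 ± 0.05 and −0.02 ± 0.05.

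**Figure D1:**
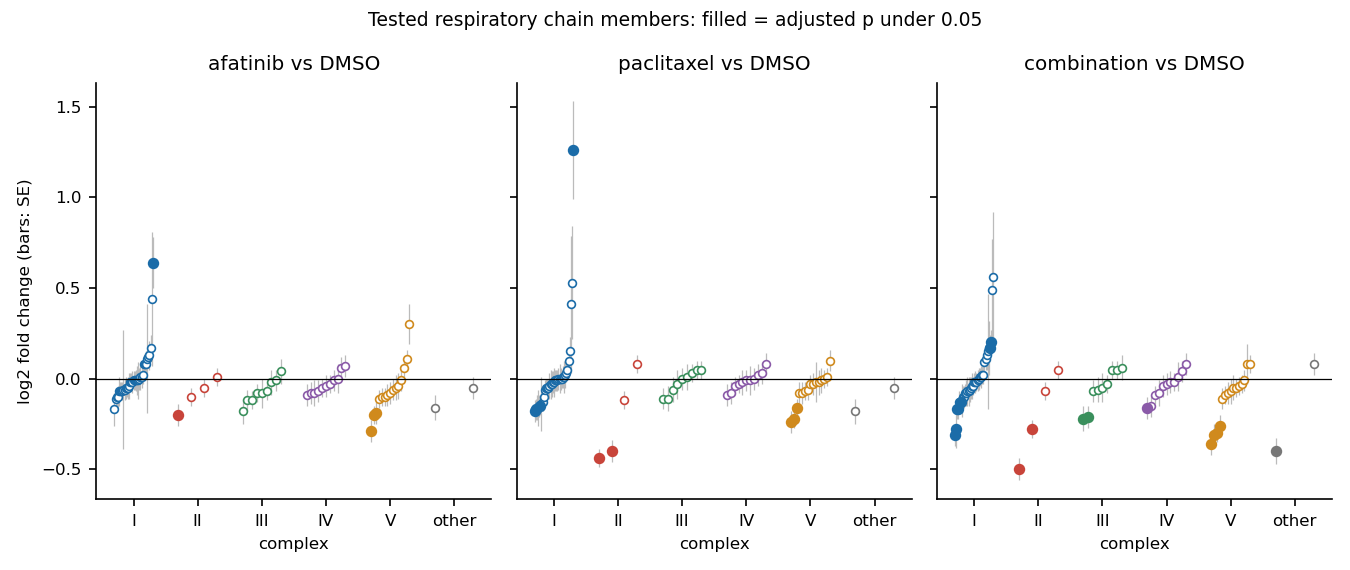
Log2 fold change (with SE) of the 76 tested members against DMSO, by complex, for afatinib, paclitaxel and the combination, with 4 libraries per group. Filled points passed an adjusted p of 0.05; most lie below 0, in complexes I, II and V, and the filled point at 1.26 with paclitaxel is NDUFV2, which has few counts.

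SDHA (chr5:218241-256700, GRCh38, GENCODE v29), the flavoprotein of complex II that oxidises succinate, fell with each treatment. SDHA had 326, 334, 359 and 390 CPM in DMSO replicates 1 to 4, and 216, 214, 272 and 298 CPM in the combination. The 2 groups did not overlap. With paclitaxel it had 250, 236, 300 and 287 CPM, also all below DMSO, and with afatinib 293, 277, 334 and 325 CPM, which overlaps DMSO because the sets differ, while within each set both afatinib libraries lay at or below both DMSO libraries. The changes were −0.20 ± 0.06 with afatinib (adjusted p = 0.0144), −0.40 ± 0.06 with paclitaxel (adjusted p = 1.27e-05) and −0.50 ± 0.06 in the combination (adjusted p = 1.02e-07). Within replicates 1 and 2 alone the combination change was −0.61, and within replicates 3 and 4 alone −0.39. The afatinib call was lost when DMSO replicate 2 (adjusted p = 0.054) or afatinib replicate 4 (adjusted p = 0.0554) was left out. Pseudogene rows held 3.3% of the joint counts with SDHA, and of these SDHAP1 rose with paclitaxel by 0.36 ± 0.09 (adjusted p = 0.00752).

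SDHC (chr1:161314257-161375340), a membrane anchor of complex II, fell with paclitaxel and in the combination and was not called with afatinib alone. SDHC had 124, 127, 111 and 103 CPM in DMSO, 135, 133, 101 and 103 CPM with afatinib, 94.5, 90.3, 79.8 and 78.1 CPM with paclitaxel and 101, 105, 88.8 and 88.4 CPM in the combination. All 4 paclitaxel libraries lay below all 4 DMSO libraries, and the combination libraries lay below DMSO within each set. The changes were 0.01 ± 0.05 with afatinib (adjusted p = 0.922), −0.44 ± 0.05 with paclitaxel (adjusted p = 8.93e-07) and −0.28 ± 0.05 in the combination (adjusted p = 0.000107). The combination stood above paclitaxel alone by 0.16 ± 0.05 (adjusted p = 0.0239), a call that was lost without combination replicate 3 (0.0623), paclitaxel replicate 1 (0.0509) or paclitaxel replicate 2 (0.0668).

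The other two subunits of the same complex did not pass the test against DMSO. SDHB, the iron-sulphur subunit, had 98.8, 94.2, 73.3 and 69.1 CPM in DMSO and 99.3, 99, 74.1 and 74.6 CPM in the combination, which overlap. Its changes were −0.10 ± 0.05, 0.08 ± 0.05 and 0.05 ± 0.05 with afatinib, paclitaxel and the combination, so the 95% interval in the combination ran from −0.05 to 0.15. SDHD, the second membrane anchor, changed by −0.05 ± 0.05, −0.12 ± 0.05 and −0.07 ± 0.05. Against afatinib alone the combination raised SDHB by 0.15 ± 0.05 (adjusted p = 0.028), lost without afatinib replicate 2 (0.0665), afatinib replicate 3 (0.0874) or combination replicate 3 (0.055), and lowered SDHA by 0.31 ± 0.06 on the log2 scale (adjusted p = 0.0002). In this fit RNA of SDHA fell with each treatment and that of SDHC with paclitaxel and the combination, while changes of SDHB and SDHD stayed within −0.12 and 0.08. Differences between the subunits were not tested. With log2 concentration as the term SDHB was called higher with paclitaxel (0.27) and in the combination (0.25). The SDHC call in the combination was then lost, as given further on.

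**Figure D2:**
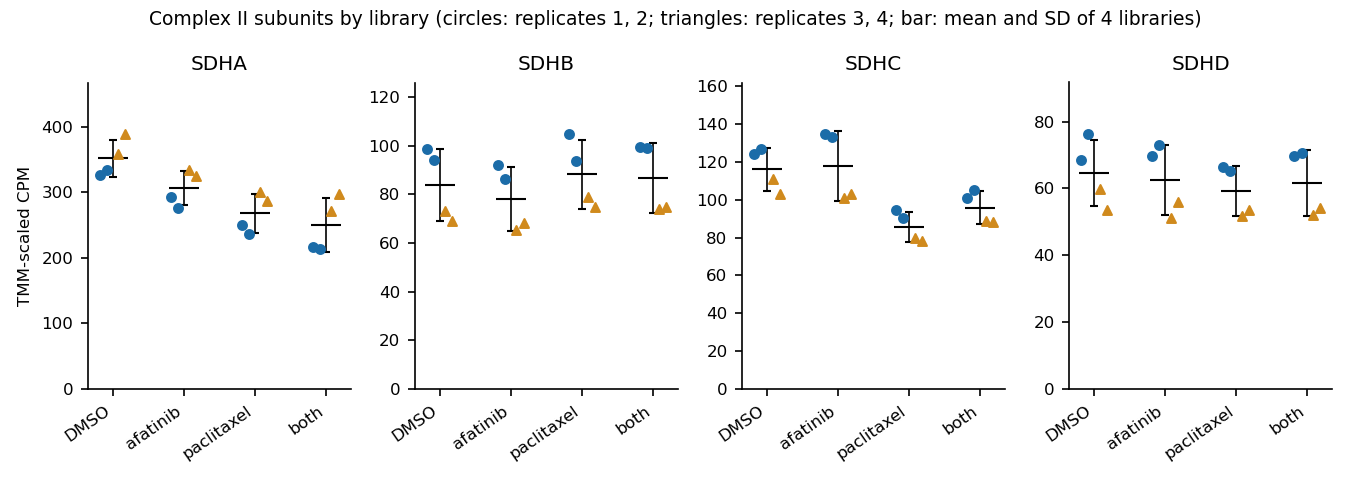
TMM-scaled CPM of SDHA, SDHB, SDHC and SDHD in each of the 16 libraries, with the mean and SD of the 4 libraries of a group. SDHA is 326 to 390 CPM in DMSO and 214 to 298 CPM in the combination, while SDHB and SDHD overlap across all 4 groups; triangles lie above circles for SDHA and below them for the other 3.

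In ATP synthase 3 of 15 tested members fell under afatinib, 3 under paclitaxel and 4 under both drugs, and none was called higher. Of all genes 10.1%, 11.9% and 19.5% were called lower, and of the 9718 whose average log2 CPM reached 3, 1530, 1794 and 2665. The split in ATP synthase turned when log2 concentration was the term. It was then 0 and 0 under afatinib, 3 higher and 0 lower under paclitaxel, and 2 higher and 1 lower under both. ATP5B (chr12:56638175-56646068) had 887, 882, 738 and 711 CPM in DMSO and 691, 686, 628 and 597 CPM in the combination, so the combination libraries lay below the DMSO libraries of their set. It fell with each treatment, by 0.20 ± 0.05 on the log2 scale with afatinib (adjusted p = 0.012), by 0.22 ± 0.05 with paclitaxel (adjusted p = 0.00562) and by 0.30 ± 0.05 in the combination (adjusted p = 8.57e-05), and no single library decided any of these calls. SDHA and ATP5B were the 2 members called lower with all 3 treatments. ATP5A1, which alternates with ATP5B in the F1 head, changed by −0.10 ± 0.05, −0.03 ± 0.05 and −0.04 ± 0.05 and was not called.

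ATP5D (chr19:1241746-1244826), the delta subunit of the central stalk, was lower with afatinib and in the combination, and afatinib was not tested against paclitaxel. It had 85.2, 91.1, 65.3 and 67.1 CPM in DMSO, 73.6, 66, 56.8 and 55.1 CPM with afatinib, 87.8, 77.1, 70.8 and 65.1 CPM with paclitaxel and 66.1, 70.8, 52.6 and 51.4 CPM in the combination. Afatinib and combination libraries lay below the DMSO libraries of their set, and paclitaxel libraries did not. The changes were −0.29 ± 0.06 with afatinib (adjusted p = 0.000777), −0.03 ± 0.06 with paclitaxel (adjusted p = 0.776) and −0.36 ± 0.06 in the combination (adjusted p = 2.02e-05). The combination was lower than paclitaxel alone by −0.33 ± 0.06 (adjusted p = 0.000163), the 1 of the 8 calls in that comparison that held whichever library was left out.

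The c ring, the proton-driven rotor, is encoded by 3 genes whose mature proteins are the same, and each was called in a different set of comparisons. ATP5G1 had 96.3, 102, 78.7 and 84.6 CPM in DMSO, 87.9, 77.3, 68 and 71.6 CPM with paclitaxel and 82.8, 83.8, 61.9 and 63.7 CPM in the combination, and both treated groups lay below DMSO within each set. ATP5G1 changed by −0.24 ± 0.06 with paclitaxel (adjusted p = 0.00258) and −0.31 ± 0.06 in the combination (adjusted p = 7.85e-05), and by −0.09 ± 0.06 with afatinib (adjusted p = 0.3). ATP5G3 changed by −0.19 ± 0.06 with afatinib (adjusted p = 0.0182, lost without DMSO replicate 3 at 0.063 or afatinib replicate 3 at 0.0739), −0.08 ± 0.06 with paclitaxel (adjusted p = 0.376) and −0.26 ± 0.06 in the combination (adjusted p = 0.000525). ATP5G3 had 155, 156, 122 and 109 CPM in DMSO and 131, 133, 99.3 and 89.4 CPM in the combination. ATP5G2 was called only with paclitaxel among the comparisons with DMSO, at −0.16 ± 0.05 (adjusted p = 0.0307), and lost the call in 5 of 16 leave-outs, without DMSO replicates 1, 2 or 4 or paclitaxel replicates 2 or 3 (adjusted p 0.0546 to 0.136). It was at 0.04 when log2 concentration was the term (adjusted p = 0.702). Whether the 3 genes differ from each other within a treatment was not tested. ATPIF1 (now ATP5IF1), the inhibitor of ATP synthase and not matched by the naming pattern, changed by 0.14 ± 0.06, −0.00 ± 0.06 and 0.07 ± 0.06 and was not called, while with log2 concentration as the term it was called higher in the combination, at 0.31 (adjusted p = 0.0129), and without DMSO replicate 3 with afatinib, at 0.18 (adjusted p = 0.04).

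**Figure D3:**
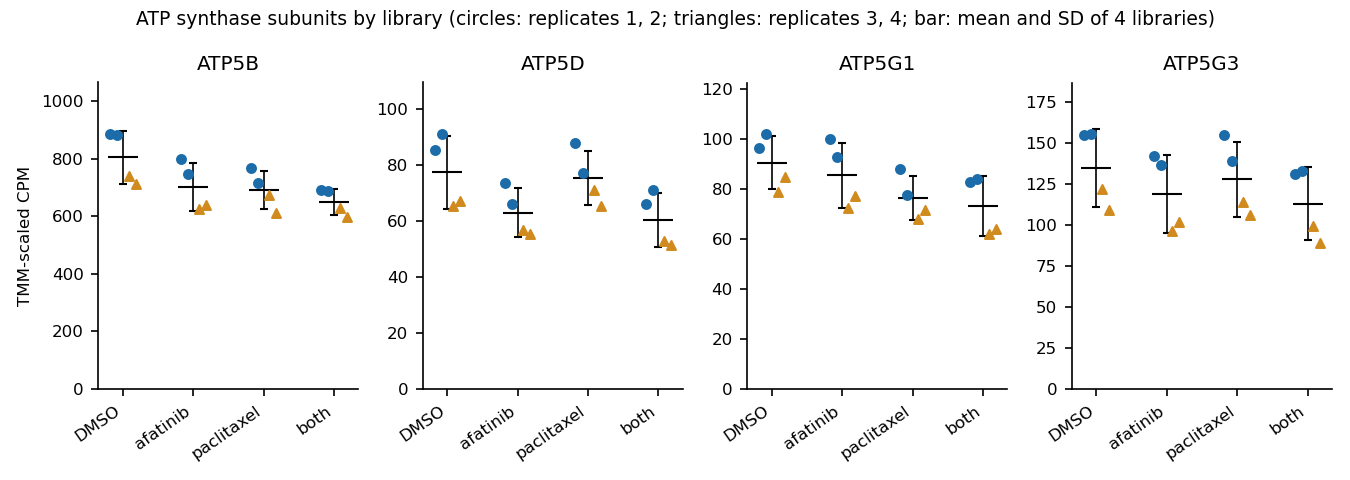
TMM-scaled CPM of ATP5B, ATP5D, ATP5G1 and ATP5G3 in each library, with the mean and SD of the 4 libraries of a group. ATP5D is at 85.2 and 91.1 CPM in DMSO replicates 1 and 2 and 66.1 and 70.8 CPM in those of the combination; in all 4 genes replicates 3 and 4 lie below replicates 1 and 2 of the same group.

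Complex I, the largest of them, had few calls among its 35 tested subunits. Under afatinib 1 was higher and 0 lower, under paclitaxel 1 higher and 3 lower, and under both drugs 2 higher and 5 lower. These are 2.86%, 11.4% and 20% called, beside 19.1%, 20.5% and 38% of all genes. With log2 concentration as the term most calls were higher with paclitaxel and in the combination, as given further on. NDUFV3, an accessory subunit of the NADH-binding module, had 41.3, 38.4, 35.2 and 33.6 CPM in DMSO and 31.8, 31.4, 28.9 and 28 CPM in the combination, with no overlap. It fell by 0.31 ± 0.06 in the combination (adjusted p = 0.000162) and by 0.17 ± 0.06 with paclitaxel (adjusted p = 0.0457), where the call was lost in 11 of 16 leave-outs (0.0503 to 0.177), that is in all but those of DMSO replicate 4, afatinib replicates 2 and 4, combination replicate 4 and paclitaxel replicate 1. It stood lower in the combination than with afatinib alone as well, by −0.25 ± 0.06 (adjusted p = 0.0019). NDUFS1, the largest core subunit and a holder of iron-sulphur clusters, had 147, 136, 146 and 145 CPM in DMSO and 131, 122, 127 and 129 CPM in the combination, again without overlap, and changed by −0.17 ± 0.05 (adjusted p = 0.00574).

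The further calls in complex I were weaker. In the combination NDUFA11 changed by −0.28 ± 0.10, NDUFS8 by −0.17 ± 0.05 and NDUFS3 by −0.13 ± 0.05, and with paclitaxel NDUFS7 by −0.18 ± 0.06 and NDUFS1 by −0.15 ± 0.05. NDUFS3 lost its call in 13 of the 16 leave-outs, that is in all but those of DMSO replicate 3 and paclitaxel replicates 2 and 3 (adjusted p 0.0509 to 0.147), NDUFS8 without DMSO replicate 2 (0.0544), and NDUFA11 without DMSO replicates 1 or 4 or combination replicates 1, 3 or 4 (0.0521 to 0.135). NDUFS7 lost it without DMSO replicates 1, 2 or 4 or paclitaxel replicates 2 or 3 (0.0733 to 0.158), and NDUFS1 with paclitaxel without DMSO replicates 1 or 3 or paclitaxel replicates 2, 3 or 4 (0.0522 to 0.0907). The 2 members called higher in the combination, NDUFA2 (0.20 ± 0.07, adjusted p = 0.0383) and NDUFC2 (0.17 ± 0.07, adjusted p = 0.0484), lost their calls in 5 leave-outs, of DMSO replicates 1, 2 and 4 and combination replicates 1 and 2 (0.0627 to 0.104), and in 9, of DMSO replicates 1 and 3, afatinib replicates 3 and 4, combination replicates 2, 3 and 4 and paclitaxel replicates 1 and 2 (0.0515 to 0.134).

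The members with the largest rises are ones with few counts. NDUFV2 had 0.503, 0.312, 0.346 and 0.459 CPM in DMSO and 0.877, 0.897, 0.96 and 1.15 CPM with paclitaxel, without overlap, a change of 1.26 ± 0.27 (adjusted p = 0.00116). Its pseudogene NDUFV2P1 changed by 0.00 ± 0.13 with paclitaxel. NDUFA13 had 1.92, 1.5, 1.79 and 2.86 CPM in DMSO and 2.72, 2.46, 3.09 and 4.25 CPM with afatinib, a change of 0.64 ± 0.14 (adjusted p = 0.00242), and 21% of its exon bases overlap YJEFN3 and a further gene on the same strand. NDUFA13 is a structural subunit of the membrane arm. These values come from 9 to 42 and 61 to 187 counts per library.

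In complex III the combination lowered CYC1, the cytochrome c1 subunit, by 0.22 ± 0.07 on the log2 scale (adjusted p = 0.0135) and UQCRC1, a core subunit, by 0.21 ± 0.06 (adjusted p = 0.00723). Neither single drug gave a call among the 9 tested subunits of complex III. CYC1 had 224, 238, 200 and 259 CPM in DMSO and 199, 204, 184 and 208 CPM in the combination, which overlap, and the call was lost without DMSO replicate 2 (0.0513), DMSO replicate 4 (0.0843) or combination replicate 3 (0.0571). UQCRC1 had 228, 222, 183 and 181 CPM in DMSO and 186, 188, 169 and 160 CPM in the combination, lower within each set, and no single library decided its call. UQCRFS1, the Rieske iron-sulphur subunit, was not called against DMSO, and stood higher in the combination than with afatinib alone, by 0.18 ± 0.05 (adjusted p = 0.0123).

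Complex IV had 1 call in all. With each single drug the changes of its 11 subunits ran from −0.09 to 0.08 and none was called; in the combination they ran from −0.16 to 0.08. That call was COX5B, at −0.16 ± 0.06 (adjusted p = 0.0346), which was lost without DMSO replicates 1, 2 or 4 or combination replicates 2 or 3 (0.0607 to 0.138). ATP5S, which matches the naming pattern but is a factor of the inner membrane and not a subunit, fell in the combination from 24.2 ± 2.97 to 18.3 ± 1.03 CPM (SD, n = 4), a change of −0.40 ± 0.07 (adjusted p = 6.95e-05), and 20.1% of its exon bases overlap neighbouring genes.

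Set against the single drugs, the combination had 2 members higher and 10 lower than afatinib, where 27.4% of all genes were called, 13.1% higher and 14.3% lower. It had 3 higher and 5 lower than paclitaxel, where 24.2% of all genes were called, 12.6% higher and 11.6% lower. Members lower than with afatinib alone in each leave-out were SDHA, SDHC (−0.29 ± 0.05, adjusted p = 0.000127), ATP5G1 (−0.23 ± 0.06, adjusted p = 0.00352) and NDUFV3. The interaction, which is the combination change minus the sum of both single-drug changes, was called for 0 members by edgeR and by DESeq2, while 3 members (NDUFV2, ATP5SL and SDHC) had an unadjusted p under 0.05 in edgeR and 0.884% of all genes were called. The interaction was 0.09 ± 0.08 for SDHA and 0.15 ± 0.07 for SDHC. The intervals lay within 1.25-fold of additivity for 89.5% of members.

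The 2 concentration sets differed far more than the treatments in these genes. In replicates 3 and 4 against 1 and 2 over all treatments, 63 of the 76 members were lower and 6 higher, with a median change of −0.33. Of all genes 69.5% were called in this comparison, 36.2% higher and 33.3% lower, with a median of 0.01. For 41 members (53.9%) all 8 libraries of replicates 3 and 4 lay below all 8 of replicates 1 and 2, which held for 11.2% of all genes tested. The members summed to 0.702 to 0.795% of a library's counts in replicates 1 and 2 and to 0.530 to 0.621% in replicates 3 and 4, without overlap.

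The largest falls between the sets were those of ATP5J, UQCR10 and ATP5E. ATP5J (coupling factor 6, in the peripheral stalk) had 51.7 to 57.7 CPM in the 8 libraries of replicates 1 and 2 and 28.2 to 37.9 CPM in the other 8, a change of −0.75 ± 0.05 (adjusted p = 1.09e-12). UQCR10, a small subunit of complex III, changed by −0.71 ± 0.05, and ATP5E, the epsilon subunit, by −0.69 ± 0.04. All 5 tested small subunits of complex III were lower, with a median of −0.57. Complex III as a whole had a median of −0.53, ATP synthase −0.39, complex II −0.32, complex I −0.29 and complex IV −0.19.

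Some members went the other way. COX6A1, a subunit of complex IV, had 53.6 to 59.5 CPM in replicates 1 and 2 and 72.2 to 96.8 CPM in replicates 3 and 4, a change of 0.58 ± 0.05 (adjusted p = 1.4e-09). NDUFB9 rose by 0.39 ± 0.04 and SDHA by 0.27 ± 0.04, so SDHA differed between the sets in the direction opposite to SDHB, SDHC and SDHD. NDUFV2, NDUFA13 and NDUFA7 rose too, on few counts. NDUFS1 (0.01 ± 0.03) and CYC1 (−0.01 ± 0.05) were not called, but with a length trend removed NDUFS1 was lower, at −0.22 (adjusted p = 2.65e-06).

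Genes of other lists also differed between the sets. Of 79 cytosolic ribosomal protein genes 77 were lower (median −0.52), as were 67 of 75 mitochondrial ribosomal protein genes (median −0.44), 32 of 48 assembly factors of the chain (median −0.25) and 13 of 17 enzymes of the tricarboxylic acid cycle (median −0.20). The 13 subunits encoded in mitochondrial DNA were all higher, with a median of 1.31 and a range of 1.15 to 1.59, and rose from 2.11 to 3.22% of counts in replicates 1 and 2 to 3.81 to 9.21% in replicates 3 and 4. Members are shorter than other genes, with a median exon length of 2562 against 4005 bases. Over all genes the median change between the sets went from −0.17 in the shortest of 4 equal length groups to 0.16 in the longest, and 29 members lie in the shortest. With a length trend removed in each library the members' median was −0.31, with 61 lower and 6 higher. The labelled concentration and the set move together here, and the part of each in the difference cannot be told apart. The part of length was not tested beyond that fit.

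**Figure D4:**
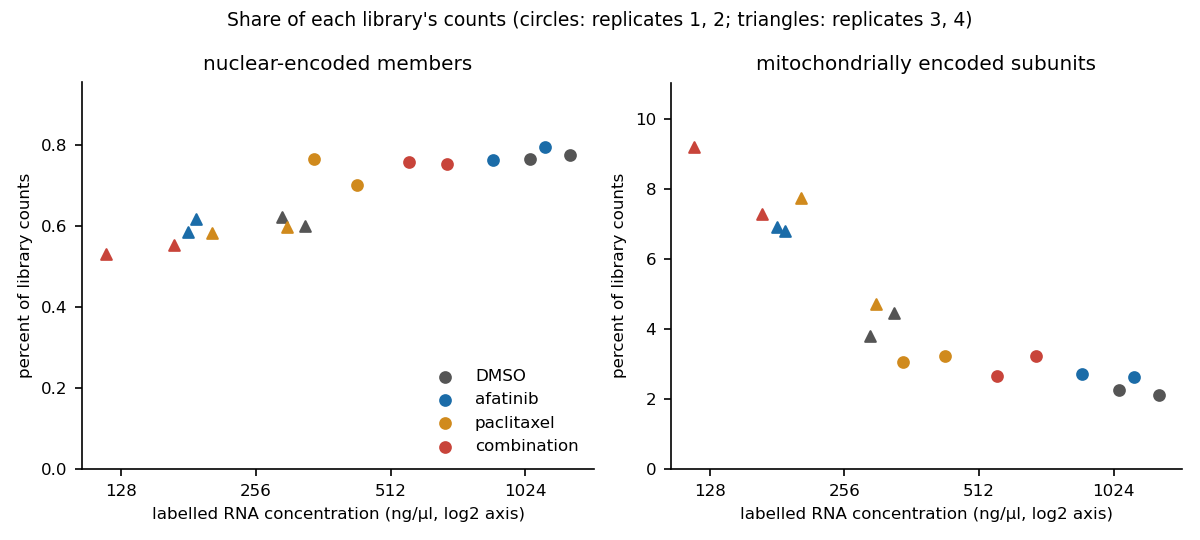
Percent of each library's counts in the 80 nuclear-encoded members (left) and in the 13 mitochondrially encoded subunits (right), against the labelled RNA concentration in ng/µl on a log2 axis, for 16 libraries coloured by treatment. Members take 0.702 to 0.795% in replicates 1 and 2 (circles) and 0.530 to 0.621% in replicates 3 and 4 (triangles), and the mitochondrial share, 2.11 to 9.21%, is highest in the library with the lowest concentration.

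Treatments also differ in labelled concentration within a set. Mean concentrations of DMSO, afatinib, paclitaxel and combination libraries were 1170, 1000, 388 and 623 ng/µl in the higher set and 311, 184, 252 and 143 ng/µl in the lower one. With log2 concentration as the term in place of the set, 66 of 71 members whose average log2 CPM reached 3 moved upward relative to the fit with the set in each of the 3 comparisons. Called were then 1 higher and 1 lower with afatinib (5.9% and 6.85% of all genes), 14 higher and 4 lower with paclitaxel (13.3% and 16.7%) and 18 higher and 7 lower in the combination (18% and 20.9%). In the main fit these splits were 1 to 4, 1 to 8 and 2 to 15, so the direction of the majority turned with this choice for paclitaxel and the combination. By complex, higher and lower calls were then 5 and 1 in complex I, 1 and 2 in complex II, 4 and 0 in complex III and 1 and 1 in complex IV with paclitaxel, and 9 and 3, 1 and 1, 4 and 0, and 1 and 1 in the combination. Within replicates 1 and 2 alone, 1, 4 and 9 members were called lower and 0, 0 and 1 higher, and within replicates 3 and 4 alone 0, 2 and 7 lower and 0, 1 and 0 higher.

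SDHA was among the members whose fall did not rest on the choice between the set and log2 concentration. Its afatinib call did depend on other ways of treating concentration. That call was lost with no concentration term and on the authors' corrected log2 values. It was also lost within the lower set alone, which has fewer libraries. With log2 concentration as the term SDHA changed by −0.26 with afatinib (adjusted p = 0.0223) and −0.51 with paclitaxel (adjusted p = 0.000108). In the combination SDHA then changed by −0.63 (adjusted p = 3.68e-06). SDHC with paclitaxel (−0.31, adjusted p = 0.00128), and ATP5B (−0.18, adjusted p = 0.0412), NDUFV3 (−0.25, adjusted p = 0.00926), NDUFS1 (−0.18, adjusted p = 0.012) and ATP5S (−0.29, adjusted p = 0.0132) in the combination also remained called. ATP5D (−0.18, adjusted p = 0.0614), ATP5G1 (−0.15, adjusted p = 0.103), ATP5G3 (−0.03, adjusted p = 0.788) and UQCRC1 (−0.08, adjusted p = 0.382) in the combination did not, nor did SDHC there (−0.14, adjusted p = 0.0823) or CYC1 (−0.20, adjusted p = 0.0505). ATP5B lost its call with afatinib (−0.14, adjusted p = 0.165) and with paclitaxel (−0.10, adjusted p = 0.269), ATP5D and ATP5G3 theirs with afatinib (adjusted p = 0.0585 and 0.57), and ATP5G1 its call with paclitaxel (−0.09, adjusted p = 0.372). SDHB was then called higher with paclitaxel (0.27, adjusted p = 0.0124) and in the combination (0.25, adjusted p = 0.0147), and UQCRFS1 likewise (0.28 in both, adjusted p = 0.0079 and 0.0044).

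**Figure D5:**
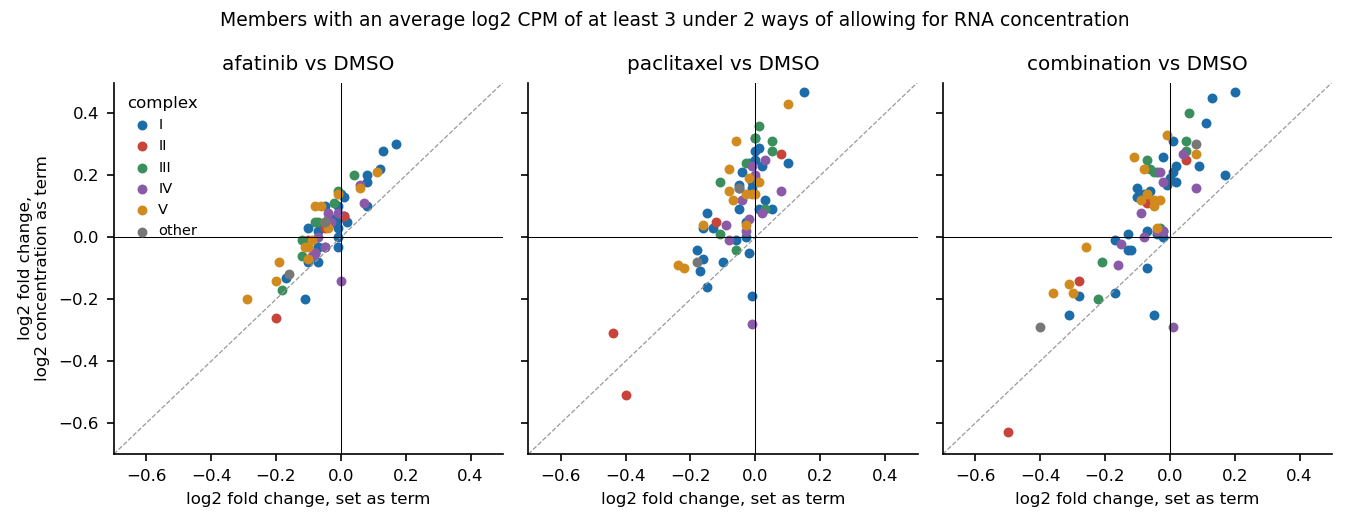
Log2 fold change against DMSO of the 71 members whose average log2 CPM reached 3, with the set as the term (x axis) and with log2 concentration as the term (y axis), coloured by complex, with 4 libraries per group; the dashed line marks equal values. In each panel 66 of the 71 points lie above the line, and the lowest point in the combination panel, at −0.50 and −0.63, is SDHA.

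Genes that work with the chain showed the following against DMSO in the fit with the set. Of the 13 mitochondrially encoded subunits 6 were higher with afatinib (median 0.34), 5 with paclitaxel (median 0.50) and 8 in the combination (median 0.67), and none was lower. Called higher were 9%, 8.65% and 18.5% of all genes. MT-ND4, a membrane subunit of complex I, changed by 1.02 ± 0.21, 0.77 ± 0.21 and 1.39 ± 0.21; the paclitaxel call was lost without DMSO replicates 3 or 4 or paclitaxel replicates 2 or 4 (adjusted p 0.0573 to 0.0618). With log2 concentration as the term these counts became 4 higher and 1 lower, 0 and 0, and 2 higher and 5 lower, so the majority turned in the combination, while with paclitaxel no call was left. Assembly factors were called in 16.7%, 8.33% and 29.2% with afatinib, paclitaxel and the combination, below the 19.1%, 20.5% and 38% of all genes. Of the 48 factors 2 were higher and 6 lower with afatinib, 1 and 3 with paclitaxel, and 5 and 9 in the combination. These became, when log2 concentration was the term, 2 and 2, 13 and 2, and 15 and 8, so the majority turned for paclitaxel and the combination. COX18, which inserts a complex IV subunit into the membrane, fell by 0.46 ± 0.07 with afatinib (adjusted p = 3.98e-05) and by 0.54 ± 0.07 in the combination (adjusted p = 6.21e-07). C6orf57 (now SDHAF4), which binds SDHA during assembly of complex II, fell from 6.52 ± 0.635 to 4.44 CPM in the combination, a change of −0.56 ± 0.10 (adjusted p = 4.88e-05), and by 0.37 ± 0.10 with paclitaxel (adjusted p = 0.0066), where the call was lost with log2 concentration as the term (−0.22, adjusted p = 0.128).

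Enzymes of the tricarboxylic acid cycle fell in part: 4, 4 and 7 of 17 were lower with afatinib, paclitaxel and both drugs, and none was called higher. Of all genes 10.1%, 11.9% and 19.5% were lower, and of the 9718 whose average log2 CPM reached 3, 1530, 1794 and 2665. When log2 concentration was the term, 1, 2 and 3 of the 17 enzymes were lower and 1 was higher in the combination. PDHB, of the pyruvate dehydrogenase complex, changed by −0.37 ± 0.06 in the combination (−0.26 with log2 concentration as the term, adjusted p = 0.0105), and DLST, of the oxoglutarate dehydrogenase complex, by −0.21 ± 0.05 with afatinib and −0.24 ± 0.05 in the combination. Of 14 regulators, PPARGC1A, a coactivator of mitochondrial gene transcription, was higher with each treatment, by 0.96 ± 0.14, 1.02 ± 0.14 and 1.35 ± 0.14 (adjusted p = 2.25e-08 in the combination), from a low level of 1.62 ± 0.346 CPM in DMSO. MYC was lower in the combination by −0.80 ± 0.09 (adjusted p = 3.66e-07). GABPA was higher there by 0.16 ± 0.06 (adjusted p = 0.0465), a call lost without DMSO replicates 2 or 4, afatinib replicates 3 or 4, combination replicates 1 or 3, or paclitaxel replicates 1 or 3 (0.0534 to 0.17). NRF1 (0.13 ± 0.06), ESRRA (−0.04 ± 0.06) and TFAM (−0.05 ± 0.05) were not called there, while with log2 concentration as the term NRF1 was higher in the combination (0.21, adjusted p = 0.0335) and ESRRA with paclitaxel (0.23, adjusted p = 0.00997).

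Promoters of the members are described next, and no link between them and the changes above was tested. RefSeq promoter entries (GRCh38.p14, 250 bases before to 50 after the start) matched 61 of the 75 subunit rows by symbol. Short motifs linked in textbooks to mitochondrial genes were searched on both strands. Each of the 61 members has 1 entry on a main chromosome. The 35116 entries set beside them were not limited in this way, so these sets are unlike and their difference was not tested. GCGCATGC, the core bound by NRF1, was in 21.3% of these 61 and in 3.05% of 35116 promoter entries. CCGGAAG, bound by ETS factors such as GABPA, was in 31.1% and 10.3%, AAGATGG, bound by YY1, in 26.2% and 5.84%, and GGGCGG, bound by SP1, in 60.7% and 45%. At least 1 of the motifs of NRF1, ETS and YY1 was in 59% of members and 17.6% of all entries. A related motif, GCGCANGCG, chosen after the SDHA promoter had been seen and overlapping GCGCATGC where N is T, was in 32.8% and 7.52%. It allows any base at N but needs a further last letter, so not each promoter with GCGCATGC holds it. Those of COX5B and SDHB have GCGCATGC alone of the 2.

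SDHA, called lower with each treatment, has 4 copies of GCGCANGCG and none of the other motifs searched. The copies are at positions −166, −117, −68 and −19 from the RefSeq start and so spaced evenly. Those at −68 and −19 lie inside the gene by its GENCODE v29 start. Whether the 4 are separate sites was not tested. All 4 copies are shown with 10 bases on each side and the 9 matching letters in capitals, on the plus strand of chromosome 5. The first is at chr5:218144-218172 and the last at chr5:218291-218319.
SDHA copy at −166: ggtccgctttGCGCAGGCGcggcgccccc
SDHA copy at −117: gtggcatggtGCGCAGGCGcgatgtcccc
SDHA copy at −68: ccggcgtggtGCGCAGGCGcggtatcccc
SDHA copy at −19: ccggtgtggtGCGCAGGCGcagtctgcgc

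Upstream stretches of 3 further members are given for comparison, each from 250 bases before the RefSeq start to the outermost start in GENCODE v29, with NRF1, ETS and YY1 matches on either strand in capitals (SP1 matches are not marked). SDHB, which was not called against DMSO, has an NRF1 core in chr1:17054171-17054282 (minus strand). Its promoter entry also holds an ETS motif at −128 and a YY1 motif at 11 from the start, outside that stretch. COX5B, called in the combination by a narrow margin, has an NRF1 core and an ETS motif in chr2:97645812-97646039 (plus strand). A further ETS motif at −5 lies outside that stretch. ATP5G1, called with paclitaxel and the combination, has none of the motifs searched in chr17:48892537-48892764 (plus strand).
SDHB upstream: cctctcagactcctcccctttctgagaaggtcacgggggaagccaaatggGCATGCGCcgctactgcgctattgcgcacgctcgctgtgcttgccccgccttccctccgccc
COX5B upstream: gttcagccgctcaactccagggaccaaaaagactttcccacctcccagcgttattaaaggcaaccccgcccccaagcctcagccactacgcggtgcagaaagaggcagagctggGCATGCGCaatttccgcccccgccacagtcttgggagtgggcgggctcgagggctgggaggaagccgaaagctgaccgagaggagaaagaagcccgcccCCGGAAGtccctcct
ATP5G1 upstream: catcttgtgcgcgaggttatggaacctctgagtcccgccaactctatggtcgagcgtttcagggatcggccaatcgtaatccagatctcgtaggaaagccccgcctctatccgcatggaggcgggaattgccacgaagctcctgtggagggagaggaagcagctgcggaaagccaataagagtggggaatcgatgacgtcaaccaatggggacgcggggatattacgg
A match is a match of letters only, and members with and without one were found among those that fell and those that did not.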

How the data were processed

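The authors deposited a table of whole-number gene counts for 16 libraries and a second table holding log2 expression after a concentration correction. STAR 2.7.5b, the hg38 build and featureCounts (Subread 2.0.1) are named for the counts, per the submitters' processing notes. The deposited log2 values are, by a check of the values, log2 CPM of edgeR (prior count 2) from which a straight-line term in labelled concentration was taken; they served as an alternative only. Positions, lengths and overlaps come from GENCODE v29 (GRCh38), and 77 of 80 deposited lengths equal its exon bases; the annotation of the counting is not given in the sources used here.

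Genes were kept by filterByExpr (minimum count 10, minimum total 15; 17991 kept), scaled by TMM and tested in R 4.3.3 by edgeR 4.0.16 (robust quasi-likelihood), with group and concentration set as terms and all 16 libraries in 1 fit; limma 3.58.1 and DESeq2 1.42.0 gave alternatives. SEs were obtained by dividing the size of the log2 fold change by the root of F, and the biological coefficient of variation was 7.41%. The scripts were tested on counts simulated with no difference between the sets and the same spread for all genes. For the combination against DMSO 55.2% of changes of 1.25-fold were found, 97% at 1.5-fold and 100% at 2-fold. Changes near 1.25-fold can thus be missed.

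The members and gene lists were chosen with earlier results of these data known. Named are fixed anchor genes (subunits of each complex and ATPIF1), up to 4 called members per comparison and direction with the largest change (average log2 CPM 3 or more, sign equal within each set), the 3 largest per direction between the sets, up to 2 called genes per list with the smallest p, and 6 regulators. ATP5G2, NDUFS7, NDUFS8, NDUFA13, COX5B, other called members, NDUFB9, the assembly factor, cycle and regulator examples printed and the promoters shown were picked from or beside these after their values were seen.

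Replicate numbers come from the labels. Correlations of deviations from group means were 0.37 to 0.70 for same-numbered libraries (median 0.59, 24 pairs). They were 0.38 to 0.67 (median 0.50) for the same set and another number. Same-numbered libraries always share a set, so these values cannot tell pairing by number from the set. With set means removed the same-number values were −0.12 to 0.13 (median 0). For the same set and another number they were then −0.3 to −0.04 (median −0.18). Same-numbered libraries had the higher median either way, so the set may not hold all of the pairing. Removing set means itself lowers such correlations, so these values do not settle whether the numbers pair libraries. The main fit has a term for the set and none for the number. A fit with the replicate number as a block is among the alternatives below.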

Additional observations from a re-analysis of the deposited data

Results flagged for a closer look

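Of 324 groups of 4 libraries checked for a library far from the other 3 (80 named genes in each treatment, and the summed share of the members), 3 were marked, and chance marks about 1 in 20 groups. COX5B was at 112 CPM in paclitaxel replicate 1 and at 98.2 to 99.6 CPM in the other 3 libraries. MYC was at 184 CPM in afatinib replicate 1 and at 153 to 155 CPM in the others, and without that library its change with afatinib was −0.29 (adjusted p = 0.0256), against −0.20 (adjusted p = 0.125) with it. PPARGC1B was at 7.43 CPM in afatinib replicate 1 and at 11.4 to 11.9 CPM in the others. The cause was not tested.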

How the results depend on the processing

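The number of members called depended most on how RNA concentration was treated. For afatinib, paclitaxel and the combination against DMSO it was 5, 9 and 17, and became 0, 1 and 3 with no concentration term and 0, 1 and 4 with limma on the authors' corrected log2 values. It was 2 for afatinib and 18 for paclitaxel with log2 concentration as a term, 1, 4 and 10 in replicates 1 and 2 alone, and 0, 3 and 7 in replicates 3 and 4 alone. Against afatinib the combination had 12 calls, and 0, 0, 3 and 2 with no term, the authors' values and either pair of replicates. Against paclitaxel it had 8, and 4 with no filter on low counts, 0 with no term, 1 with the authors' values, 2 with log2 concentration and 1 in either pair. Unadjusted p under 0.05 was reached by 4, 14 and 15 members against DMSO on the authors' values. The cause was not tested; pairs of replicates have fewer samples. Leaving out 1 library gave 4 to 6, 5 to 9 and 12 to 17 calls against DMSO, 6 to 12 and 3 to 9 against the single drugs, 0 for the interaction and 67 to 70 between the sets. The count for paclitaxel was 5 without DMSO replicate 1 or paclitaxel replicates 2 or 3. Against afatinib it was 7, 6 and 7 without afatinib replicate 3, afatinib replicate 4 and combination replicate 3. Against paclitaxel it was 4 without combination replicate 2 or paclitaxel replicates 1 or 3, and 3 without combination replicate 3. Of the called values of named genes under the alternatives, 655 lost the call and 8 more changed sign. With log2 concentration as a term and on the authors' values, in that order, the paclitaxel change went to 0.04 and 0.05 for ATP5G2, −0.06 and −0.16 for MT-CO2 and 0.06 and 0.07 for RPL41. On the authors' values it was −0.01 for MT-ND4 with paclitaxel and 0.00 for CYB5A in the combination. NDUFS1 between the sets, not called at 0.01, was called at −0.22 with a length trend removed. Of values not called, 18 became calls in the same direction, 7 of them with log2 concentration. The replicate block gave 7, 10 and 18 calls against DMSO and 13 and 12 against the single drugs. It made CYC1 with afatinib a call (−0.17, adjusted p = 0.0256) and changed no other call of a named gene. DESeq2, its size factors in edgeR, summing rows of 1 symbol and a filter of 50 counts moved no count by over 1.5 times. The set comparison was not run on the authors' values, with log2 concentration or with no term. The lowest library total, 28366004 counts, limits members with few counts most.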
